A study of Mus musculus with 8 samples.

Results

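The 10 genes described here encode growth factor receptors of muscle stem cells (MuSCs) and genes that the ERK kinase pathway is known to induce. Fgfr1, Fgfr3, Fgfr4, Met and Egfr encode receptors, and Spry2, Spry4, Dusp6, Etv4 and Etv5 encode feedback inhibitors and transcription factors of the pathway. They were taken by symbol from the 55487 gene identifiers in the count table, and all 10 were found and passed the filter on low counts. MuSCs sorted from hindlimb muscles of aged mice were kept in growth medium for 72 hours with nicotinamide plus pyridoxine (NAM/PN, labelled 1 mM without a separate concentration for each) or with its vehicle, DMSO at 1%. The study's methods give wild-type C57BL/6JRj males aged 23 to 25 months for its mouse experiments. Its description of the MuSC proliferation assay gives a slightly narrower age range. The 8 mice were combined into 4 pools of 2 mice, and each pool was cultured in both conditions, which gave 4 libraries per condition and libraries with the same pool number from the same mice. Both groups came from aged mice and were cultured, and young or freshly isolated cells were not analysed here.

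Fibroblast growth factors (FGFs) bind FGF receptors together with heparan sulfate on the cell surface, hepatocyte growth factor (HGF) binds MET, and EGF-like ligands bind EGFR. All 3 kinds of receptor tyrosine kinase signal through RAS, RAF and MEK to ERK. ERK then induces its own inhibitors, the Sprouty proteins and the ERK phosphatase DUSP6, and the ETS transcription factors ETV4 and ETV5, so that transcripts of these genes are widely used as a readout of ERK signaling. In muscle, HGF and FGFs are known as activators of quiescent satellite cells, and FGF signaling keeps myoblasts proliferating. The medium that the study describes for its MuSC proliferation assay contained basic FGF and serum, and the labels of these libraries name only growth medium. That assay lasted longer and used less DMSO than these cultures, so whether their medium was the same is not known.

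The sequenced libraries held between 6472484 and 10163101 counts of reads on genes, and values are given as CPM, the counts scaled to the normalized library size. The kit reads only 3′ ends, and no division by gene length was made. The floor of 3 counts was worth 0.295 to 0.464 CPM depending on the library, and the floor covers counting error only. The myogenic label was checked with Pax7, the transcription factor of satellite cells, at 97.3 to 247 CPM over the 8 libraries, and with Myod1, the myoblast determination factor, at 1038 to 1561 CPM. Fibro-adipogenic markers summed to at most 5.85 CPM and endothelial markers to at most 29.6 CPM in any library. Pdgfra, Lum, Flt1, Emcn, Cldn5, Ptprc and Adgre1, which define fibro-adipogenic, endothelial and immune cells, had 0 counts in all 8 libraries. Immune markers reached at most 7.58 CPM and Schwann and glial markers at most 44.5 CPM, whereas mural markers summed to 285 to 611 CPM with vehicle and to 95.9 to 156 CPM with NAM/PN. Most of the mural sum was Acta2, a smooth muscle actin gene (mean of 368 CPM with vehicle, 70.5 CPM with NAM/PN), and Notch3 (37.6 and 26.7 CPM) and Cspg4 (27.1 and 18.7 CPM) were also expressed. Of the other 5 mural markers, Myh11 had 0 counts and Abcc9, Rgs5, Pdgfrb and Kcnj8 had 79, 32, 27 and 18 counts over all 8 libraries. The 9 differentiating muscle markers summed to 1239 to 2505 CPM with vehicle and to 179.7 to 521 CPM with NAM/PN. In bulk libraries, fewer cells of a type and less RNA per cell cannot be told apart.

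The 3 genes whose vehicle and NAM/PN libraries did not overlap were Fgfr4, Met and Dusp6, and sequence from just upstream of each is shown for that reason. Windows of 250 bases before the RefSeq start on GRCm38.p6 were searched, which were on hand for 7 of the 10 genes. RefSeq and GENCODE, whose gene positions are used in the rest of the text, place the start of Fgfr4 and Met differently. Of the window, 178 bases for Fgfr4 and 157 bases for Met lie inside the GENCODE gene, and only the bases before the GENCODE start are printed. For Dusp6 both starts coincide. The printed stretches, 5′ to 3′ on the plus strand, which is the strand of all 3 genes, are chr13:55152568-55152639 for Fgfr4, chr6:17463707-17463799 for Met and chr10:99262981-99263230 for Dusp6.
Fgfr4: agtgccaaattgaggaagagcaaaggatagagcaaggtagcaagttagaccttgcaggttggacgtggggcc
Met: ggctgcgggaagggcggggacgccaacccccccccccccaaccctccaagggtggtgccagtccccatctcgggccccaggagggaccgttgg
Dusp6: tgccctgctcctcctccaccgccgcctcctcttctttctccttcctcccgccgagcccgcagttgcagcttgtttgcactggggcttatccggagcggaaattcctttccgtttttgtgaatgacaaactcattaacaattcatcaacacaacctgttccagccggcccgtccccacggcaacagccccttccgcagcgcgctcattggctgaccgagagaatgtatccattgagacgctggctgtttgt
The search, on both strands, was for CCGGAA (an ETS-type motif), TGANTCA (the AP-1 motif) and CAGCTG (an E-box bound by myogenic factors), and the printed stretches, all in lower case, hold no match. In the rest of the window, Fgfr4 had 1 ETS-type match, which began at the GENCODE start, 178 bases before the RefSeq start. Met had 1 AP-1 match, which began 103 bases after the GENCODE start and 54 bases before the RefSeq start. Among the other searched genes, Egfr had 1 ETS-type match, Fgfr3 and Etv5 had 1 E-box match each and Spry2 had none. Of 32851 windows of 250 bases before a RefSeq start, 12.0% held the ETS-type motif, 6.75% the AP-1 motif and 13.0% the E-box.

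By the quasi-likelihood test of edgeR, adjusted after Benjamini and Hochberg over 12060 genes, 0 of the 10 genes passed an adjusted p of 0.05, where 1.28% of all tested genes did (34 higher and 120 lower with NAM/PN). At an unadjusted p under 0.05 the count was 3 of the 10 (Dusp6 and Met higher, Fgfr4 lower), where 9.28% of all tested genes passed. With the same test blocked on the pool, Etv4 (higher) was also under 0.05 (unadjusted p = 0.0464, adjusted p = 0.522), where 1124 of the 12060 genes were. DESeq2 called 1 of the 10, Met, where 2.40% of all genes were called. A limma voom fit with the pool as a replicate block called 3 of the 10 (Met and Dusp6 higher, Fgfr4 lower), where 1.92% of all genes were called. Vehicle and NAM/PN libraries were without overlap for 3 of the 10 genes, and for 7.21% of all tested genes. These genes were chosen with earlier results of the data known, so the counts are a description and no test was made over the 10. All 5 feedback genes and ETS factors had a higher mean with NAM/PN, as had Met and Fgfr3, whereas Fgfr1, Fgfr4 and Egfr had a lower mean. The median log2 fold change of the 10 genes was 0.61, and that of all tested genes was -0.0022.

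**Figure D1:**
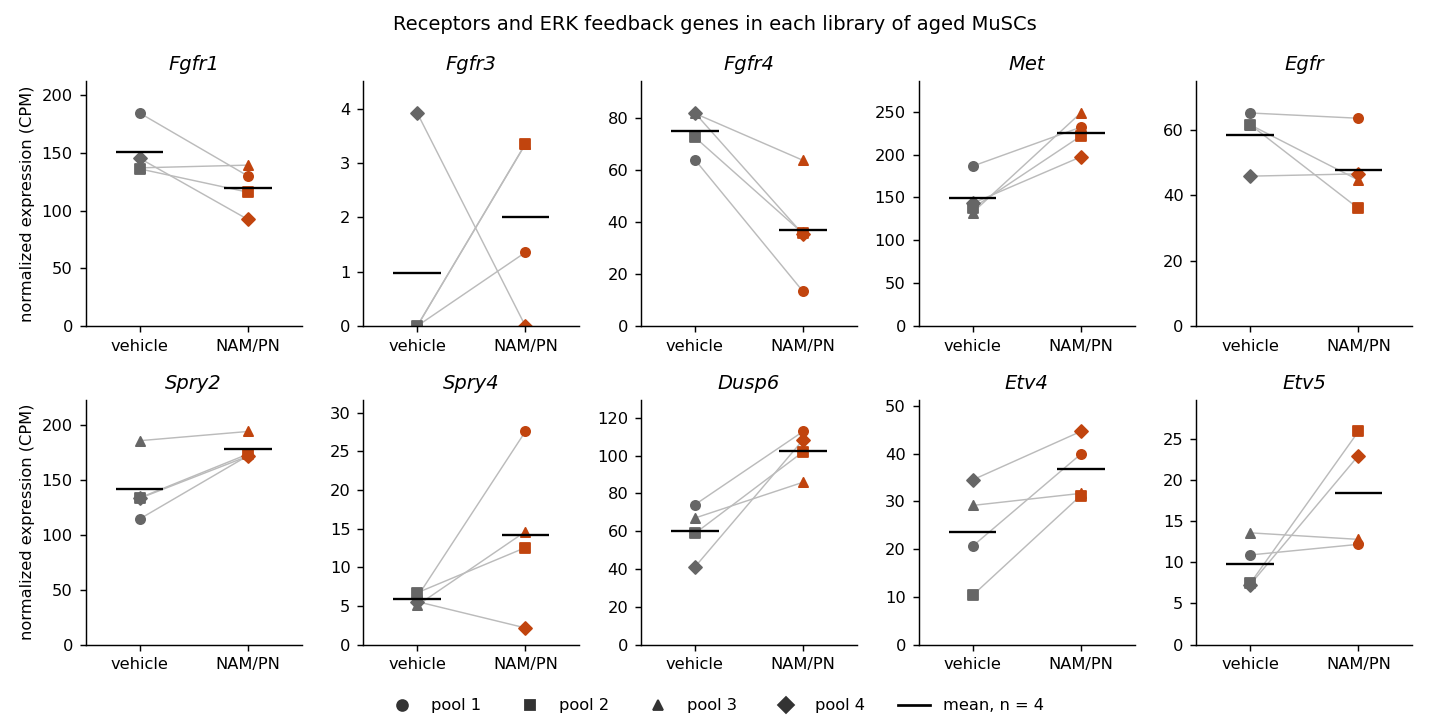
Normalized expression (CPM, linear axes from 0) of each of the 10 genes in the 8 libraries, with vehicle on the left and NAM/PN on the right of each panel. Each point is 1 library, its shape gives the pool, grey lines join libraries of the same pool and black bars are means (n = 4). Fgfr4 was lower and Met and Dusp6 were higher in every NAM/PN library than in every vehicle library, while Fgfr3 stayed below 4 CPM.

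Among the receptors, Fgfr4 (ENSMUSG00000005320, chromosome 13 of GRCm38 from 55152640 to 55168759) had the largest difference of those above the floor of detection. FGFR4 is an FGF receptor that in muscle is expressed by activated satellite cells and myoblasts. With vehicle, its expression was 64.1, 72.7, 81.9 and 82.1 CPM in pools 1 to 4. With NAM/PN, it was 13.3, 35.7, 63.8 and 35.3 CPM in the same pools. The lowest vehicle library (64.1 CPM) and the highest NAM/PN library (63.8 CPM) were almost level, so the groups were separated by less than 1 CPM, and pool 3 differed far less than pool 1. The vehicle mean was 75.2 ± 8.60 CPM and the NAM/PN mean 37.0 ± 20.7 CPM (SD, 4 libraries each). The log2 fold change of Fgfr4 was -1.02 (standard error 0.33, 95% interval -1.72 to -0.33), with an adjusted p of 0.190 in edgeR's quasi-likelihood test, and blocking on the pool gave 0.0552. It passed in edgeR without NAM/PN replicate 3 (-1.42, adjusted p = 0.0405) and without a filter on low counts (adjusted p = 0.00662). The fit without the filter tested 19244 genes and called 366, against 154 in the main fit. Fgfr4 also passed in limma voom (adjusted p = 0.0308) but not in DESeq2 (adjusted p = 0.147). With any other library left out, its adjusted p in edgeR was between 0.258 and 0.433.

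Fgfr1 (ENSMUSG00000031565, chromosome 8 from 25513654 to 25575718) encodes the FGF receptor through which basic FGF acts on satellite cells. Its values were 184, 136, 137 and 145 CPM with vehicle and 129.99, 116, 139 and 92.4 CPM with NAM/PN in pools 1 to 4. The groups overlapped, as the NAM/PN library of pool 3 lay above the vehicle libraries of pools 2 and 3, and 3 of 4 pools were lower with NAM/PN. Fgfr1 had a log2 fold change of -0.34 (standard error 0.19, 95% interval -0.74 to 0.064) and an adjusted p of 0.677 in edgeR's quasi-likelihood test.

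Fgfr3 (ENSMUSG00000054252, chromosome 5 from 33721674 to 33737068), another FGF receptor gene, was close to the floor of detection. It had 0, 0, 0 and 36 counts in the vehicle libraries and 11, 24, 22 and 0 counts in the NAM/PN libraries of pools 1 to 4. In every pool 1 condition was at 0 counts, which was vehicle in pools 1 to 3 and NAM/PN in pool 4. The 95% interval of its log2 fold change ran from -3.27 to 5.30, so the direction was not detectable at this depth. Fgfr2, the remaining FGF receptor kinase gene, had 62 counts over all 8 libraries and was not tested.

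Fgfr1 and Fgfr4 together held nearly all counts on the 4 FGF receptor kinase genes, and the share of Fgfr4 was smaller with NAM/PN in every pool. With vehicle, Fgfr4 took 25.6%, 34.8%, 37.4% and 35.1% of these counts in pools 1 to 4. With NAM/PN, it took 9.03%, 23.02%, 30.9% and 27.7%. The groups overlapped, since the NAM/PN libraries of pools 3 and 4 lay inside the vehicle range. The exact Clopper-Pearson 95% interval was 28.4% to 33.4% for pool 3 and 25.3% to 30.1% for pool 4 with NAM/PN, against 23.7% to 27.5% for the vehicle library of pool 1. No p was computed for these shares. Their intervals cover counting error only, and shares are of reads from 3′ ends and not of receptor protein.

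**Figure D2:**
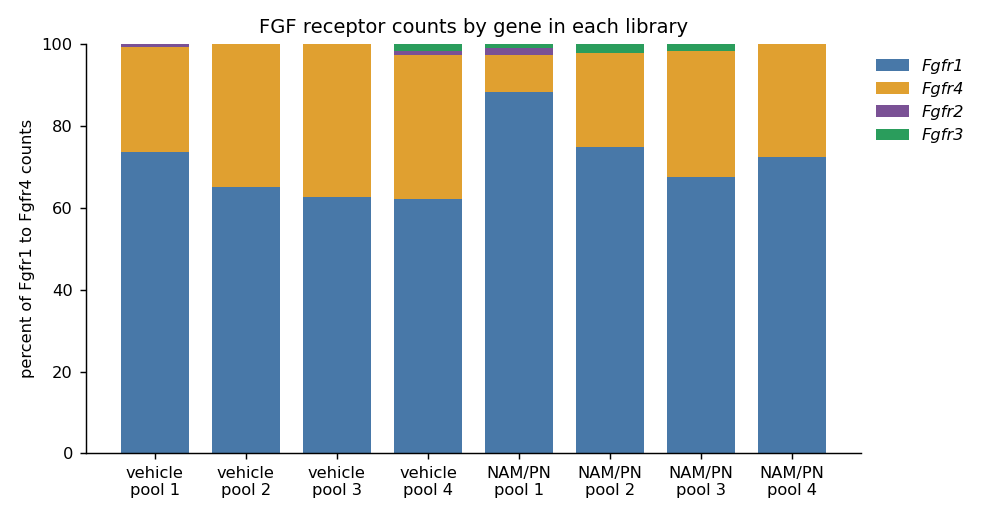
Percent of the counts on Fgfr1, Fgfr2, Fgfr3 and Fgfr4 that fell on each gene, as stacked bars for the 4 vehicle and 4 NAM/PN libraries. Fgfr4 took 25.6% to 37.4% with vehicle and 9.03% to 30.9% with NAM/PN, and Fgfr2 and Fgfr3 took at most 2.158% in any library.

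Met (ENSMUSG00000009376, chromosome 6 from 17463800 to 17573980) encodes the receptor for HGF, the factor that brings satellite cells out of quiescence. Its expression was 186, 137, 132 and 143 CPM with vehicle and 232, 222, 249 and 197 CPM with NAM/PN in pools 1 to 4. Every NAM/PN library lay above every vehicle library, and the increase within pools was between 0.31 (pool 1) and 0.91 (pool 3) on the log2 CPM scale. The vehicle mean was 149.8 ± 24.8 CPM and the NAM/PN mean 225 ± 21.5 CPM (SD, 4 libraries each). The log2 fold change of Met was 0.59 (standard error 0.18, 95% interval 0.22 to 0.95), and its adjusted p was 0.144 in edgeR's quasi-likelihood test, 0.186 when blocked on the pool and 0.0362 in DESeq2. Hgf itself had 0 counts in all 8 libraries, which allows up to 3 counts in each.

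Egfr (ENSMUSG00000020122, chromosome 11 from 16752203 to 16918158) encodes the receptor for EGF-like ligands. Its values were 65.1, 61.5, 61.5 and 45.8 CPM with vehicle and 63.5, 35.9, 44.6 and 46.5 CPM with NAM/PN in pools 1 to 4. The groups overlapped, pools 1 and 4 were nearly level, and the log2 fold change of Egfr was -0.30 (standard error 0.24, 95% interval -0.81 to 0.22, adjusted p = 0.841 in edgeR's quasi-likelihood test).

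Of the feedback genes, Dusp6 (ENSMUSG00000019960, chromosome 10 from 99263231 to 99267489) had the smallest p-value of the 10 genes in the edgeR fit without a pool block, whereas Fgfr4 had it when blocked on the pool and Met in DESeq2. DUSP6 is a cytoplasmic phosphatase that removes the activating phosphates from ERK. Its expression was 74.0, 58.8, 66.9 and 41.0 CPM with vehicle and 113, 102, 85.9 and 108 CPM with NAM/PN in pools 1 to 4. All NAM/PN libraries lay above all vehicle libraries, and the difference was smallest in pool 3 and largest in pool 4. The vehicle mean was 60.2 ± 14.2 CPM and the NAM/PN mean 102 ± 11.8 CPM (SD, 4 libraries each). Dusp6 had a log2 fold change of 0.76 (standard error 0.22, 95% interval 0.31 to 1.22), with an adjusted p of 0.111 in edgeR's quasi-likelihood test, 0.135 when blocked on the pool, 0.0628 in DESeq2 and 0.0296 in limma voom.

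The Sprouty proteins block growth factor signaling upstream of ERK, and both Sprouty genes had higher means with NAM/PN. Spry2 (ENSMUSG00000022114, chromosome 14 from 105891947 to 105896819) was expressed at 114, 134, 186 and 133 CPM with vehicle and at 172, 173, 194 and 172 CPM with NAM/PN in pools 1 to 4. All 4 pools were higher with NAM/PN, but the vehicle library of pool 3 lay above 3 of the NAM/PN libraries, and the log2 fold change of Spry2 was 0.33 (standard error 0.18, 95% interval -0.059 to 0.71, adjusted p = 0.672 in edgeR's quasi-likelihood test). Spry4 (ENSMUSG00000024427, chromosome 18 from 38586247 to 38601415) had 6.16, 6.70, 5.06 and 5.55 CPM with vehicle and 27.6, 12.5, 14.6 and 2.15 CPM with NAM/PN. The 4 vehicle libraries of Spry4 were close together, whereas the NAM/PN libraries ranged from below all of them to several times above. Its log2 fold change of 1.27 (standard error 0.68, 95% interval -0.14 to 2.69, adjusted p = 0.626 in edgeR's quasi-likelihood test) was 0.73 without NAM/PN replicate 1 and 1.63 without NAM/PN replicate 4.

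Etv4 and Etv5 encode ETS transcription factors of the PEA3 group, whose transcription is induced by FGF signaling in many tissues. Etv4 (ENSMUSG00000017724, chromosome 11 from 101769742 to 101785371) was expressed at 20.6, 10.3, 29.1 and 34.5 CPM with vehicle and at 39.9, 31.2, 31.7 and 44.6 CPM with NAM/PN in pools 1 to 4. Each pool was higher with NAM/PN, but by only 0.12 on the log2 CPM scale in pool 3, and the vehicle library of pool 4 lay above 2 NAM/PN libraries. In edgeR's quasi-likelihood test the log2 fold change of Etv4 was 0.64 (standard error 0.36, 95% interval -0.10 to 1.39, adjusted p = 0.658). Etv5 (ENSMUSG00000013089, chromosome 16 from 22381309 to 22439719) had 10.9, 7.44, 13.6 and 7.29 CPM with vehicle and 12.2, 25.9, 12.8 and 22.98 CPM with NAM/PN. Pools 2 and 4 were higher with NAM/PN, whereas pools 1 and 3 differed by 0.16 and -0.085 on the log2 CPM scale. The log2 fold change of Etv5 was 0.91 (standard error 0.47, 95% interval -0.076 to 1.90, adjusted p = 0.602 in edgeR's quasi-likelihood test).

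**Figure D3:**
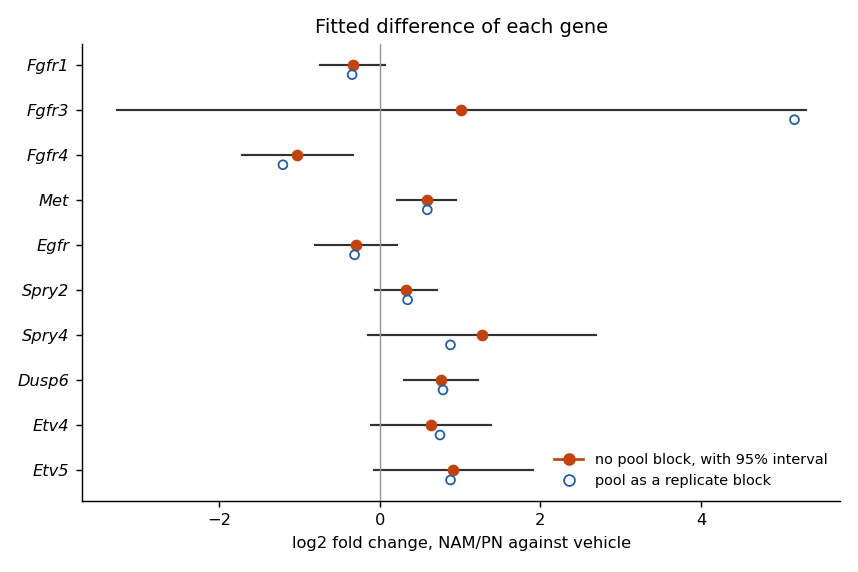
Log2 fold change of NAM/PN against vehicle for the 10 genes, as filled points with 95% intervals from the edgeR fit without a pool block, and as open points from the fit blocked on the pool. The intervals of Fgfr4, Met and Dusp6 did not include 0, and that of Fgfr3 was the widest, from -3.27 to 5.30.

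The spread between libraries of a condition set how large a difference could pass. Leaving out Fgfr3, the coefficient of variation within a condition was between 6.15% (Spry2, NAM/PN) and 73.4% (Spry4, NAM/PN), whereas counting error alone, taken from the mean count, gave between 2.35% and 14.2%. In the edgeR fit the biological coefficient of variation was 0.19 for Met, 0.20 for Spry2, 0.21 for Fgfr1, 0.23 for Dusp6, 0.33 for Fgfr4 and 0.65 for Spry4, against a median of 0.39 over all tested genes. No antisense or overlapping gene of the annotation had more than 4 counts over all libraries at any of the 10 genes.

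The other genes of the pathway were taken from a list of 123 genes in 12 roles that included the 10, and of the remaining 113 genes 85 were tested. With NAM/PN 0 of the 85 were higher and 2 were lower at an adjusted p of 0.05 in edgeR's quasi-likelihood test (against 1.28% of all tested genes), and their median log2 fold change was 0.020. Sulf2, an enzyme that removes sulfate groups from heparan sulfate, was expressed at 54.6, 82.5, 77.4 and 62.7 CPM with vehicle and at 23.5, 26.2, 23.6 and 38.1 CPM with NAM/PN in pools 1 to 4, without overlap. Its log2 fold change was -1.31 (standard error 0.26, adjusted p = 0.0111 in edgeR's quasi-likelihood test), and the call was lost without vehicle replicate 2 (adjusted p = 0.0792) or without NAM/PN replicate 1 (0.0523). Of 14 tested genes for heparan sulfate proteoglycans and the enzymes that build or trim them, 12 had a negative and 2 a positive log2 fold change, with a median of -0.28.

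Among 12 tested ERK feedback inhibitors, which include Dusp6, Spry2 and Spry4, 11 had a positive log2 fold change, with a median of 0.37, and 0 were called. Of all tested genes 49.8% had a positive log2 fold change. The smallest p-value in this role was that of Dusp5, which encodes a nuclear ERK phosphatase. Its expression was 29.96, 20.6, 45.9 and 21.98 CPM with vehicle and 99.2, 44.0, 76.4 and 60.0 CPM with NAM/PN in pools 1 to 4, so that only the NAM/PN library of pool 2 lay below a vehicle library. Dusp5 had a log2 fold change of 1.24 (standard error 0.31) and an adjusted p of 0.0557 in edgeR's quasi-likelihood test, and it was called when blocked on the pool (adjusted p = 0.0229). Of 11 tested ETS factors, 8 had a positive log2 fold change (median 0.16) and 0 were called. Erf, an ETS repressor that ERK keeps out of the nucleus, had the smallest p-value of these, with 67.0, 60.2, 62.2 and 96.7 CPM with vehicle and 134, 152, 83.6 and 151 CPM with NAM/PN (log2 fold change 0.87, adjusted p = 0.0746 in edgeR's quasi-likelihood test). Among 8 tested other genes known to respond to ERK, 7 had a positive log2 fold change, with a median of 0.37, and 0 were called. Epha4, an ephrin receptor gene, had the smallest p-value there (log2 fold change 1.89, adjusted p = 0.346 in edgeR's quasi-likelihood test). Ccnd1, which encodes cyclin D1 and was named after its values were seen, had a log2 fold change of -0.022 (adjusted p = 0.993 in the same test).

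Of 16 tested genes from RAS to the ERK-activated RSK kinases, 6 had a positive and 10 a negative log2 fold change (median -0.15), and of 14 tested receptor adaptors 8 were positive and 6 negative (median 0.12), with 0 genes called in either role. Ksr1, which encodes a scaffold of the cascade, had the smallest p-value of its role (log2 fold change -1.13, adjusted p = 0.320 in edgeR's quasi-likelihood test). Its libraries did not overlap, with 20.1 to 26.1 CPM with vehicle and 6.82 to 15.4 CPM with NAM/PN, and all 4 pools were lower. Rasa1, a RAS GTPase-activating protein gene, had the smallest p-value of the adaptors (log2 fold change 0.33, adjusted p = 0.663 in the same test). Rps6ka2, named after its values were seen, had 18, 39, 36 and 48 counts with vehicle and 0, 0, 0 and 6 counts with NAM/PN in pools 1 to 4, without overlap. Its adjusted p was 0.379 in edgeR's quasi-likelihood test, and its fitted log2 fold change of -4.65 is no bound, since 3 libraries were at 0 counts.

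On the ligand side, 0 of 9 FGF genes passed the filter on low counts, and Fgf2 had the most counts of these, 71 over all 8 libraries. Of the EGF receptor ligands 4 of 7 were tested and 0 were called. Hbegf, which encodes heparin-binding EGF, had the smallest p-value of these (log2 fold change 0.48, adjusted p = 0.786 in edgeR's quasi-likelihood test). Of 5 tested inhibitors of EGF receptors 0 were called, with the smallest p-value for Socs5, which promotes breakdown of EGFR (log2 fold change 1.11, adjusted p = 0.197 in the same test). Fgfrl1, an FGF receptor family gene whose product lacks a kinase domain, was expressed at 32.6, 15.8, 31.2 and 38.7 CPM with vehicle and at 61.2, 62.4, 69.3 and 49.0 CPM with NAM/PN in pools 1 to 4. The groups did not overlap for Fgfrl1, and its log2 fold change was 1.03 (standard error 0.29, adjusted p = 0.0968 in edgeR's quasi-likelihood test).

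**Figure D4:**
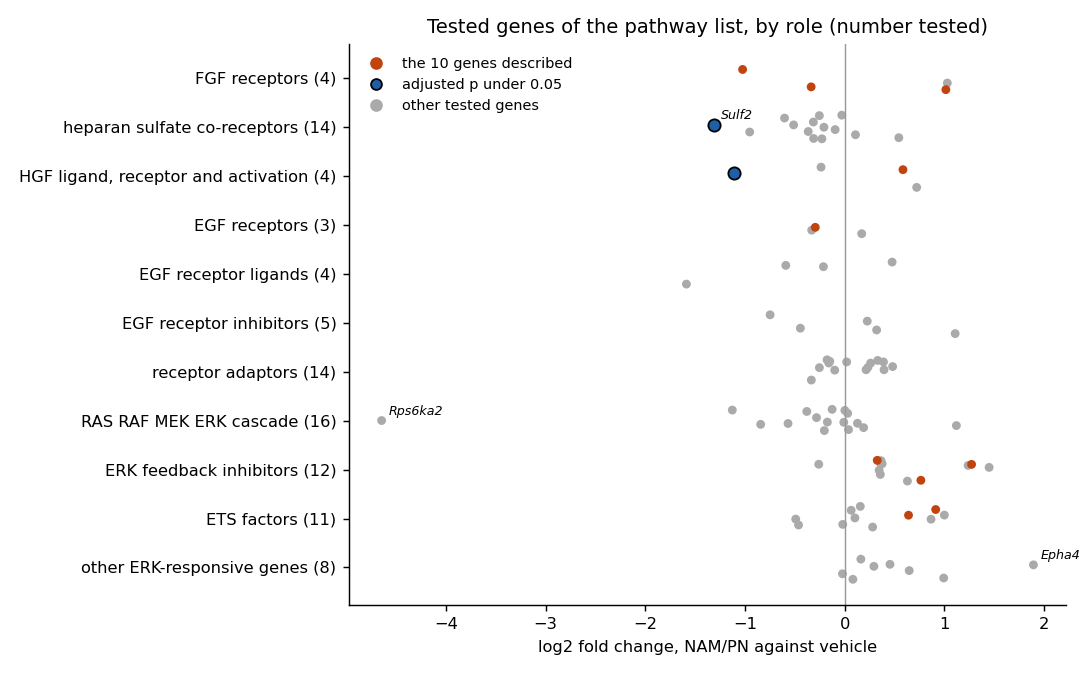
Log2 fold change of NAM/PN against vehicle for the 95 tested genes of the pathway list, grouped by role with the number tested in brackets. Each point is 1 gene, and its vertical place within a role has no meaning. Of the 95 genes 2 passed an adjusted p of 0.05, among them Sulf2, and 11 of 12 ERK feedback inhibitors lay to the right of 0.

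Markers of muscle differentiation, and 1 of 3 tested mural markers (Acta2, lower), moved with treatment in the same libraries. Of 9 such markers 7 fell with NAM/PN in edgeR's quasi-likelihood test and 0 rose, and Myog, the factor that starts terminal differentiation, was expressed at 680, 1042, 566 and 1428 CPM with vehicle and at 108, 237, 173 and 277 CPM with NAM/PN in pools 1 to 4. The 9 satellite cell and myoblast markers summed to 3845 to 4602 CPM with vehicle and to 2704 to 3300 CPM with NAM/PN, without overlap, and all 9 had a negative log2 fold change (median -0.41). Of these 1, Ncam1, fell (log2 fold change -1.22, adjusted p = 0.000147 in the same test). In the same test Pax7 differed by -0.18 on the log2 scale (adjusted p = 0.923) and Myod1 by -0.19 (adjusted p = 0.824). The part of this shift in the levels of Fgfr4, Met, Dusp6 or the other genes was not tested.

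For Dusp6, the 5 tested genes with the most similar pattern over the 8 libraries by Pearson's r of log2 CPM were Tysnd1 (0.970), Zfp524 (0.965), Adam15 (0.963), Prkcb (0.962) and Tfdp1 (0.954). Of these, Prkcb was itself called higher with NAM/PN (log2 fold change 1.58, adjusted p = 0.0196 in edgeR's quasi-likelihood test). The 8 libraries share the treatment difference and the best of 12060 genes were taken, so these values describe likeness only.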

How the data were processed

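RNA of cultured aged MuSCs was sequenced in 8 libraries from QuantSeq 3′ kits. The values that the authors deposited are counts per gene as read, with no normalization and no filter on genes. According to the study's methods, reads were aligned to GRCm38 with STAR and counted with htseq-count (2.16.2 in the submitters' processing notes), and the strand setting and the handling of reads with several positions are not given in the sources used here. Gene names and positions came from GENCODE M21 on GRCm38 (55227 of 55487 identifiers matched) and promoters from RefSeq.

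Groups were taken from the treatment in the labels. Genes were filtered with filterByExpr (minimum count 10, minimum total count 15), scaled by TMM factors and tested with edgeR 4.0.16 (glmQLFit and glmQLFTest) in R 4.3.3, p-values being adjusted after Benjamini and Hochberg across the 12060 genes that passed, at a threshold of 0.05. Standard errors are the log2 fold change divided by the square root of F, with 95% intervals from the t distribution on the moderated degrees of freedom. Log2 CPM used a prior count of 2. The pool number in the labels names the same mice in both conditions and pairs the libraries. Across genes, the deviations of paired libraries from their condition means correlated between -0.0332 and 0.0313. Libraries of a condition differed by far more than sampling noise (smallest ratio of chi-square to its degrees of freedom, 22.8).

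The 10 genes, the pathway list and the marker lists were chosen with earlier results of these data known. The text names the 10 genes, all called genes of the pathway list, for each role the tested gene ranking first by p-value, and Pax7, Myod1 and Myog as checks, and other names are marked or are members of the fixed lists. Alternatives were the pool as a replicate block, DESeq2 1.42.0 and its size factors, no filter on low counts, limma 3.58.1 (voomWithQualityWeights with duplicateCorrelation), an adjusted p of 0.10, removal of the gene with the most counts, and leaving out each library. The main edgeR fit, the fits with the replicate block and with DESeq2 size factors, DESeq2 and limma voom were run on simulated data. Those data held no differences between pools, and the other alternatives were not run on them. Results for 2 genes of the pathway list are not reported here. Figures were drawn with matplotlib 3.10.9.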

Additional observations from a re-analysis of the deposited data

Results flagged for a closer look

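In 50 groups of 4 libraries (2 conditions for each of 25 genes), the most distant library stood apart by Dixon's test (its gap to the nearest library as a share of the range) in 5, where chance gives 2.5. Spry2 was at 194 CPM in NAM/PN replicate 3 and between 172 and 173 CPM in the other NAM/PN libraries. Pax7 was at 97.3 CPM in NAM/PN replicate 4 and between 196 and 200 CPM in the other 3. Fgfr3 had 3.92 CPM in vehicle replicate 4, Fgfr2 had 2.59 CPM in NAM/PN replicate 1 and Rps6ka2 had 0.56 CPM in NAM/PN replicate 4, each with 0 counts in the other libraries of the condition. For Fgfr3, the fitted log2 fold change was 1.02 with that library and 7.04 without it, and the second value is no bound because the remaining vehicle libraries were all at 0 counts.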

How the results depend on the processing

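Over 14 alternative fits, the log2 fold changes of the 10 genes kept their direction in each, and those of Met and Dusp6 stayed between 0.52 and 0.70 and between 0.61 and 0.88. Fgfr4 lay between -1.42 and -0.74. The number of the 10 genes called was 0 in edgeR with the pool as a replicate block, with DESeq2 size factors, without the gene with the most counts and at an adjusted p of 0.10. It was 1 in DESeq2 (Met), 1 without a filter on low counts (Fgfr4) and 3 in limma voom with the pool as a replicate block (Met, Dusp6 and Fgfr4), and between 0 and 1 when each library was left out, with the 1 call (Fgfr4) arising without NAM/PN replicate 3. For the pathway list of 123 genes, 95 of them tested in the main fit, 2 were called, where 1.28% of all tested genes were. The list had 5 calls in DESeq2 (2.40% of all genes called), 8 in limma voom (1.92% of all genes called) and 8 without a filter. It had 5 calls at an adjusted p of 0.10 and between 1 and 4 with a library left out. With the replicate block the list had 3 calls, the third being Dusp5, and it changed no other call named in the text. Over all genes, 154 were called, against 156 with the replicate block, 289 in DESeq2, 232 in limma voom and 244 at an adjusted p of 0.10. Without a filter, 366 of 19244 tested genes were called. With a library left out, the count was between 80 (without vehicle replicate 2) and 177 (without NAM/PN replicate 4). The count was 87 without vehicle replicate 4 and 92 without NAM/PN replicate 1. For Pax7 the log2 fold change lay between -0.26 and 0.016 with a library left out, and it turned direction without NAM/PN replicate 4. The cause of these differences was not tested. At this depth Fgfr3 had 93 counts over all 8 libraries, and Fgfr2 and the FGF ligands had too few to be tested.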
